A study of Mus musculus with 4 samples.

Results

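The 10 genes described here encode the surfactant proteins Sftpa1, Sftpb, Sftpc and Sftpd and 6 other products typical of alveolar type 2 cells, Abca3, Lamp3, Napsa, Slc34a2, Lpcat1 and Etv5. They were chosen by gene symbol, and all 10 were found among the 24421 genes listed for each library. Alveolar type 2 cells line the air sacs of the lung and store surfactant, a film of phospholipid and protein that lowers surface tension, in organelles called lamellar bodies. Sftpb and Sftpc encode small hydrophobic proteins that spread the lipid film, whereas Sftpa1 and Sftpd encode collectins, soluble lectins that bind microbes. The other products import lipid into lamellar bodies, remodel phospholipid, cleave the surfactant precursors, take up phosphate or regulate transcription.

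RNA sequencing was done on 4 libraries, 2 from Usp25-/- mice (animals 826 and 850), which lack the deubiquitinating enzyme Usp25, and 2 from Usp25+/+ mice (animals 139 and 140). All 4 animals are labelled as C57BL/6 females of 8 weeks that received 2.5% dextran sulfate sodium, an agent that injures the colon lining, for 5 days and then regular water for 2 days. The labelled tissue is a distal segment of the colon, and the libraries differ only in genotype by their labels. The sources used here do not give the allele or the deleted part of Usp25.

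The labels were at odds with the transcripts in every library. Of 18 colon epithelial genes in the files, 13 were under 1 FPKM (fragments per kilobase of transcript, scaled to the mapped fragments of the library) in all 4 libraries. The list summed to 73.2 and 19.6 FPKM in Usp25-/- 826 and 850, and to 6.17 and 4.43 FPKM in Usp25+/+ 139 and 140. The intestinal transcription factor Cdx1 was listed at 0 in all 4 libraries, and Cdx2 was listed at 0 except for 0.279 FPKM in Usp25+/+ 139. Xist, the RNA of the silenced X chromosome in female cells, was at 0.11 FPKM or less, while the Y-linked Ddx3y stood between 12.7 and 30.3 FPKM. The targeted gene followed the genotype, with 2.65 and 1.71 FPKM of Usp25 in Usp25-/- libraries against 38.5 and 16.6 FPKM in Usp25+/+ libraries. Its difference on the log2 scale was -3.07 (SE 0.47), which limma did not call over all tested genes (adjusted p = 0.960). The values below therefore describe the libraries by their genotype labels, not the colon or the treatment. In bulk tissue, fewer cells of a type and less RNA per cell cannot be told apart. Depth is unknown for all 4 libraries. Of the listed genes, 17242 and 15805 were above 0 in Usp25-/- 826 and 850, against 20556 and 15603 in Usp25+/+ 139 and 140, so that 139 stood apart.

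All 10 genes were above 1 FPKM in every library, and Sftpb and Sftpc were among the most abundant transcripts. Among the 24421 listed genes, Sftpb ranked 16 and 28 in Usp25-/- 826 and 850 and 61 and 41 in Usp25+/+ 139 and 140. Sftpc ranked 45 and 15 in Usp25-/- libraries and 239 and 19 in Usp25+/+ libraries. Summed over the 10 genes, the level was 5027 and 4712 FPKM in Usp25-/- 826 and 850, against 1582 and 3922 FPKM in Usp25+/+ 139 and 140. That sum was 0.889% and 0.895% of all FPKM in Usp25-/- libraries, against 0.296% and 0.719% in Usp25+/+ libraries. The library of Usp25+/+ 139 was thus the lowest, and the other 3 lay close together. Sftpb and Sftpc together made up 92.7% and 88.6% of the sum in Usp25-/- 826 and 850, and 76.1% and 88.9% in Usp25+/+ 139 and 140. The other 8 genes summed to 367 and 535 FPKM in Usp25-/- libraries and to 377 and 436 FPKM in Usp25+/+ libraries, so that the genotypes overlapped.

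**Figure D1:**
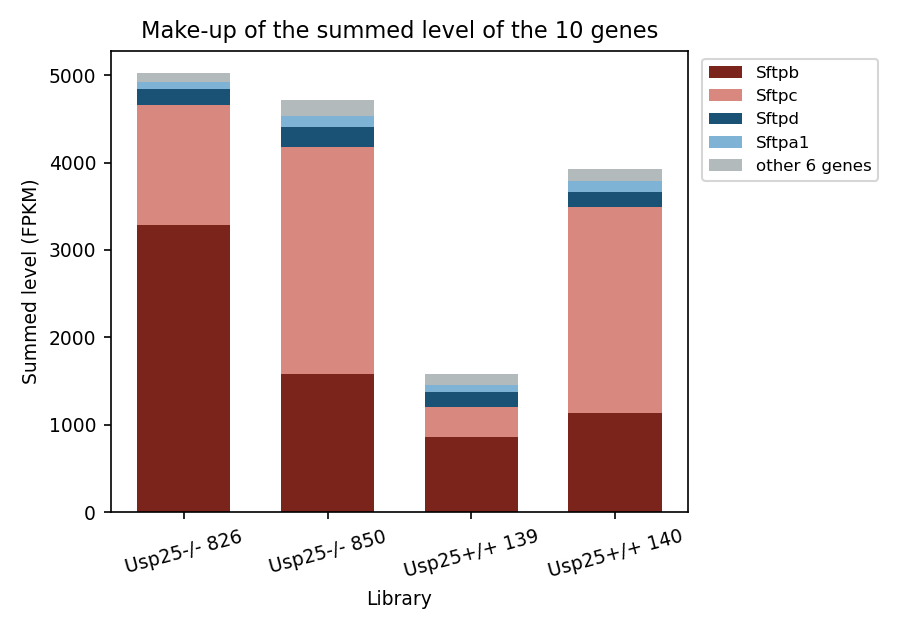
Stacked bars give the summed level of the 10 genes in FPKM (vertical axis) for each library (horizontal axis), divided into Sftpb, Sftpc, Sftpd, Sftpa1 and the other 6 genes. The bar of Usp25+/+ 139 reaches 1582 FPKM and the other 3 reach 3922 to 5027 FPKM, with most of the height from Sftpb and Sftpc.

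Sftpb and Sftpc headed the order of levels. Averaged over the 4 libraries, Sftpb stood at 1717 ± 1085 FPKM and Sftpc at 1664 ± 1029 FPKM (SD, n = 4). These genes did not differ beyond their spread, as Sftpb was the higher in 2 of 4 libraries. Sftpd followed with 190 ± 25.6 FPKM, Sftpa1 with 101 ± 30.3 FPKM and Napsa with 58.2 ± 11.8 FPKM, and the ranges of these steps did not overlap. Slc34a2 averaged 33.4 ± 11.0 FPKM, Lamp3 16.3 ± 5.91 FPKM, Abca3 14.6 ± 0.869 FPKM and Lpcat1 11.2 ± 2.06 FPKM. The ranges of each neighbouring pair from Napsa down to Lpcat1 overlapped, although within each library Napsa exceeded Slc34a2, Slc34a2 exceeded Lamp3 and Abca3 exceeded Lpcat1. Lamp3 exceeded Abca3 in 1 of 4 libraries, Usp25-/- 850, which set their order by the mean. Etv5 was the lowest at 4.08 ± 0.664 FPKM, below the range of Lpcat1. FPKM is scaled by transcript length, so these are levels per length.

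**Figure D2:**
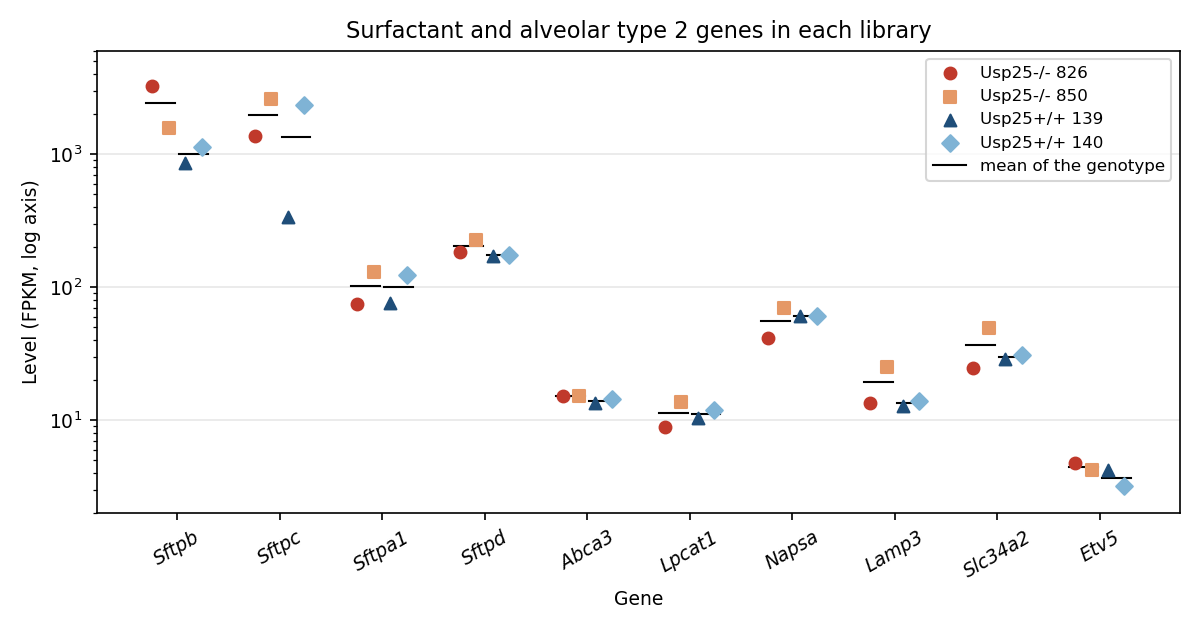
Each symbol is the FPKM (log axis) of a gene in a library, with Usp25-/- left of Usp25+/+ and a black line at the mean of each genotype (n = 2). Sftpb and Sftpc stand above the other 8 genes in every library, and the Sftpc symbol of Usp25+/+ 139 lies at 339 FPKM, below the other 3 at 1376 to 2596 FPKM.

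No member passed the test between genotypes. With limma on log2(FPKM + 1), 0 of 12011 tested genes had an adjusted p under 0.05 (0% of all tested genes), and 375 (3.12%) had an unadjusted p under 0.05, none of them a member. Of the 10 members, 8 had a positive log2 fold change and 2 a negative one, with a median of 0.23; scaling to general epithelial genes made all 10 negative, as it did the median of all genes. Over all tested genes 53.5% were positive and the median was 0.03. For 4 of the 10 members the libraries of the genotypes did not overlap, all 4 higher in Usp25-/-, while 33.8% of all tested genes did not overlap and 19.0% lay higher without overlap. Set without regard to direction, 4 of 10 is near the background of 33.8%, and 1 of the 4, Etv5, was separated only in the fourth decimal place. An exact permutation test of 2 libraries against 2 could give no p smaller than 0.333.

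Sftpb, the hydrophobic protein without which lamellar bodies do not form in mice, had the largest log2 fold change of the members. It stood at 3284 and 1581 FPKM in Usp25-/- 826 and 850, against 865 and 1139 FPKM in Usp25+/+ 139 and 140. Both Usp25-/- libraries were higher than both Usp25+/+ libraries, and 826 stood farthest from the rest. The means were 2432 ± 1205 FPKM in Usp25-/- and 1002 ± 194 FPKM in Usp25+/+ (SD, n = 2 each). The log2 fold change was 1.20 (SE 0.52; 95% interval -0.12 to 2.52), and limma gave an unadjusted p of 0.0672 and an adjusted p of 0.960. Without animal 826 the log2 fold change was 0.67, and without 850 it was 1.72. The gene lies on mm9 chromosome 6 from 72254619 to 72262926 on the plus strand.

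Sftpc, a protein made in the lung by type 2 cells and used as their defining transcript, varied most between libraries of the 10 members. It was listed at 1376 and 2596 FPKM in Usp25-/- libraries and at 339 and 2347 FPKM in Usp25+/+ libraries. The genotypes overlapped, because Usp25+/+ 140 lay between the Usp25-/- libraries and only 139 was low. The highest library had 7.66 times the FPKM of the lowest, and 97.2% of all tested genes had a smaller range on the log2(FPKM + 1) scale. The log2 fold change was 1.08 (SE 0.99; 95% interval -1.43 to 3.59; limma adjusted p = 0.960). Without animal 139 it turned to -0.31, and without 140 it was 2.48. Sftpc is on chromosome 14 from 70920748 to 70923888 on the minus strand of mm9.

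The balance of the hydrophobic proteins differed within both genotypes. Sftpb divided by Sftpc was 2.39 and 0.609 in Usp25-/- 826 and 850, and 2.55 and 0.485 in Usp25+/+ 139 and 140. Libraries 826 and 139 thus held more Sftpb than Sftpc, and 850 and 140 held less. Sftpc divided by Sftpa1 was 18.4 and 19.9 in Usp25-/- libraries and 4.49 and 18.9 in Usp25+/+ libraries, close together in 3 libraries and low in 139. The root mean square difference between the centred log2(FPKM + 1) patterns of Sftpb and Sftpc over the 4 libraries was 1.10, while the closest pair, Lamp3 and Slc34a2, had 0.11. Sftpc differed from every other member by 0.90 (Sftpa1) to 1.235 (Etv5), so this distance is not particular to Sftpb and Sftpc. The measure is not scaled to the range of a gene, and Sftpc had the widest range.

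**Figure D3:**
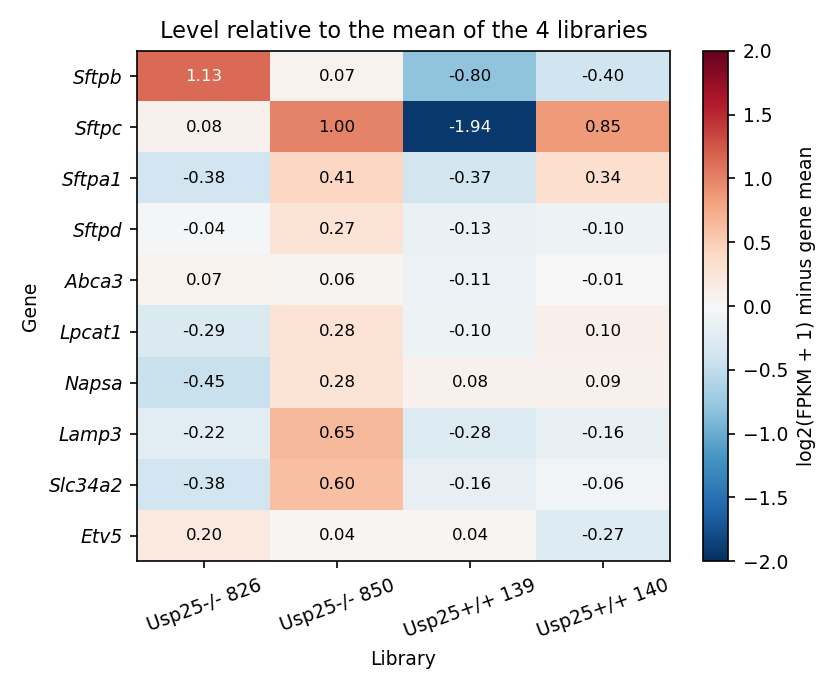
The colour and number in each cell give log2(FPKM + 1) of a gene in a library minus the mean of that gene over the 4 libraries. Sftpc in Usp25+/+ 139 (-1.94) and Sftpb in Usp25-/- 826 (1.13) lie farthest from 0, and the column of Usp25-/- 850 has no value below 0.

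Transcription of surfactant genes is known to depend on NKX2-1, a homeodomain factor that binds sites with a CAAG core, and on forkhead factors such as FOXA1 and FOXA2. Nkx2-1 stood at 13.4 and 13.4 FPKM in Usp25-/- libraries, against 6.70 and 13.7 FPKM in Usp25+/+ libraries, with the low value in 139, as for Sftpc. Foxa2 stood at 10.1 and 7.86 FPKM in Usp25-/- libraries, against 2.81 and 5.06 FPKM in Usp25+/+ libraries, without overlap and highest in 826, as for Sftpb (log2 fold change 1.05, SE 0.35; limma adjusted p = 0.960). Foxa1 was at 11.3 and 4.83 FPKM in Usp25-/- libraries, against 7.13 and 2.62 FPKM in Usp25+/+ libraries. Of all tested genes, 39.3% were lowest in 139 and 25.4% were highest in 826, so a shared lowest or highest library is common. Whether the levels of these factors have a part in those of the surfactant genes was not tested.

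Promoters of 7 of the 10 members were matched in a RefSeq table (GRCm38.p6, a later build than the mm9 of the expression values), and Sftpc, Sftpd and Napsa were not matched. The promoters of Sftpb, the member with the largest difference, of Sftpa1, the next most abundant matched gene, and of Lamp3, high in 850 alone, are shown here from 250 bases before the start to 50 after it. Capitals mark CTCAAG, which holds the NKX2-1 core, and the forkhead letters TGTTTAC and TGTTTGC, each searched on both strands.
Sftpb, chr6:72304360-72304659, plus strand: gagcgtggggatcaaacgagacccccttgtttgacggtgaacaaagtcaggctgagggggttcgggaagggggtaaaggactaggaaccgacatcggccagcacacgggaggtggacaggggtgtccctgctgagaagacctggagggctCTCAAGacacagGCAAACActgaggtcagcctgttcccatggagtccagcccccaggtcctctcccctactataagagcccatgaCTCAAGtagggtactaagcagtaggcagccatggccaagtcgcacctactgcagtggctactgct
Sftpa1, chr14:41131538-41131837, plus strand: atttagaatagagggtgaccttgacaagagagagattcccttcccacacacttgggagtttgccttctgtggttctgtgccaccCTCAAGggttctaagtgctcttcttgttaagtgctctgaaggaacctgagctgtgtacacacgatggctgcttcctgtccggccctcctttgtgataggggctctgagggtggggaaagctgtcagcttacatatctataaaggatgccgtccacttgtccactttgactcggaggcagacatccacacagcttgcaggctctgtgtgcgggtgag
Lamp3, chr16:19706316-19706615, minus strand: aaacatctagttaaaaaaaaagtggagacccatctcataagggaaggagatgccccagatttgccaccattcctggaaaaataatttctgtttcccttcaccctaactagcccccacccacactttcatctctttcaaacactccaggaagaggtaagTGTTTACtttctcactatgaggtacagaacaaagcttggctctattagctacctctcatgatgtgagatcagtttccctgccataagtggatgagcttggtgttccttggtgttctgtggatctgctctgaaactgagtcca
The Sftpb window holds CTCAAG at 2 places and the reverse of TGTTTGC between them, and no matches overlap. The 7 matched genes have 8 promoters in the table, as Etv5 has 2. CTCAAG was found in 2 of the 8 (Sftpb and Sftpa1), and in 15.9% of all 32851 promoters of that length. TGTTTAC was found in 2 of the 8 (Lamp3 and 1 of those of Etv5) against 3.65% of all, and TGTTTGC in 1 (Sftpb) against 5.07%. The promoters of Abca3, Slc34a2 and Lpcat1 held no match, whereas every promoter shown here holds at least 1. Slc34a2, also high in 850 alone, is thus not among those shown. Such matches describe letters and not bound sites.

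The collectins differed little between genotypes, within wide intervals. Sftpa1 had 74.8 and 130.4 FPKM in Usp25-/- 826 and 850, against 75.5 and 124 FPKM in Usp25+/+ 139 and 140. Each genotype thus held a low and a high library, and the genotypes overlapped almost fully (log2 fold change 0.03, SE 0.44; 95% interval -1.10 to 1.15). The sign was not stable, at -0.33 without 139 and -0.37 without 850. Sftpd had 183 and 227 FPKM in Usp25-/- libraries, against 172 and 176 FPKM in Usp25+/+ libraries, without overlap but with 850 alone standing clear. Its log2 fold change was 0.23 (SE 0.32; limma adjusted p = 0.960). The genes are neighbours on mm9 chromosome 14, Sftpa1 from 41945071 to 41949741 on the plus strand and Sftpd from 41985501 to 41998487 on the minus strand, 35759 bases apart. Of 7 other collectin and ficolin genes, 5 were under 1 FPKM in all 4 libraries. The other 2 overlapped between genotypes, the macrophage-associated ficolin Fcna at 51.9 and 32.2 FPKM in Usp25-/- libraries, against 14.2 and 41.1 FPKM in Usp25+/+ libraries, and Colec12 at 29.4 and 18.8 FPKM in Usp25-/- libraries, against 22.3 and 47.8 FPKM in Usp25+/+ libraries.

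Abca3, the transporter that carries phospholipid into lamellar bodies, was the steadiest member. It stood at 15.3 and 15.2 FPKM in Usp25-/- 826 and 850, against 13.4 and 14.5 FPKM in Usp25+/+ 139 and 140. Although the genotypes did not overlap, the highest library exceeded the lowest by a factor of only 1.14. On the log2(FPKM + 1) scale 1.67% of all tested genes had a smaller range. The log2 fold change was 0.12 (SE 0.27; 95% interval -0.56 to 0.80). Abca3 spans 24488895 to 24547146 on the plus strand of mm9 chromosome 17 and overlaps 2 other annotated genes, the snRNA gene U6 on the opposite strand and the protein-coding Gm10506 on the same strand. Lpcat1, which rebuilds phosphatidylcholine with saturated chains, had 8.91 and 13.7 FPKM in Usp25-/- libraries, against 10.3 and 12.0 FPKM in Usp25+/+ libraries. Both Usp25+/+ values lay between the Usp25-/- values, and the log2 fold change was -0.0073 (SE 0.32). Its sign turned without 140 (0.09), without 826 (0.28), with upper quartile scaling (0.0040) and with quantile normalization (0.0010). Lpcat1 spans 73604645 to 73653870 on the plus strand of chromosome 13.

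Napsa, Lamp3 and Slc34a2 shared their highest library, 850. Napsa encodes napsin A, a protease that trims the precursors of Sftpb and Sftpc, and had 41.6 and 69.6 FPKM in Usp25-/- 826 and 850, against 60.7 and 61.1 FPKM in Usp25+/+ 139 and 140. The Usp25+/+ libraries were nearly equal and lay between the Usp25-/- libraries (log2 fold change -0.17, SE 0.36; 0.19 without 826). Lamp3, a membrane glycoprotein of lamellar bodies, had 13.3 and 25.1 FPKM in Usp25-/- libraries, against 12.7 and 13.9 FPKM in Usp25+/+ libraries. Only 850 was high (log2 fold change 0.43, SE 0.38), and without it the log2 fold change was 0.00050. Slc34a2, a sodium phosphate cotransporter also known from the small intestine, had 24.6 and 49.4 FPKM in Usp25-/- libraries, against 28.7 and 30.9 FPKM in Usp25+/+ libraries. Again 850 alone was high (log2 fold change 0.22, SE 0.41; -0.27 without 850). On mm9 Napsa spans 51827802 to 51842232 of chromosome 7 and Slc34a2 53429321 to 53462903 of chromosome 5, both on the plus strand and each overlapped by 1 antisense long noncoding gene. Lamp3 spans 19653474 to 19706458 of chromosome 16 on the minus strand.

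Etv5, an ETS factor that maintains type 2 cells in mice, was the lowest member in all 4 libraries. It lies on the minus strand of mm9 chromosome 16 from 22381382 to 22439792. It had 4.77 and 4.18 FPKM in Usp25-/- 826 and 850, against 4.18 and 3.17 FPKM in Usp25+/+ 139 and 140. The genotypes counted as separate only by the difference between 4.1818 FPKM in 850 and 4.1815 FPKM in 139. The log2 fold change was 0.23 (SE 0.30; limma adjusted p = 0.960). The related factor Etv4 had 10.0 and 5.72 FPKM in Usp25-/- libraries, against 3.23 and 3.96 FPKM in Usp25+/+ libraries, a difference of 0.91 (SE 0.36) that limma did not call (adjusted p = 0.960).

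**Figure D4:**
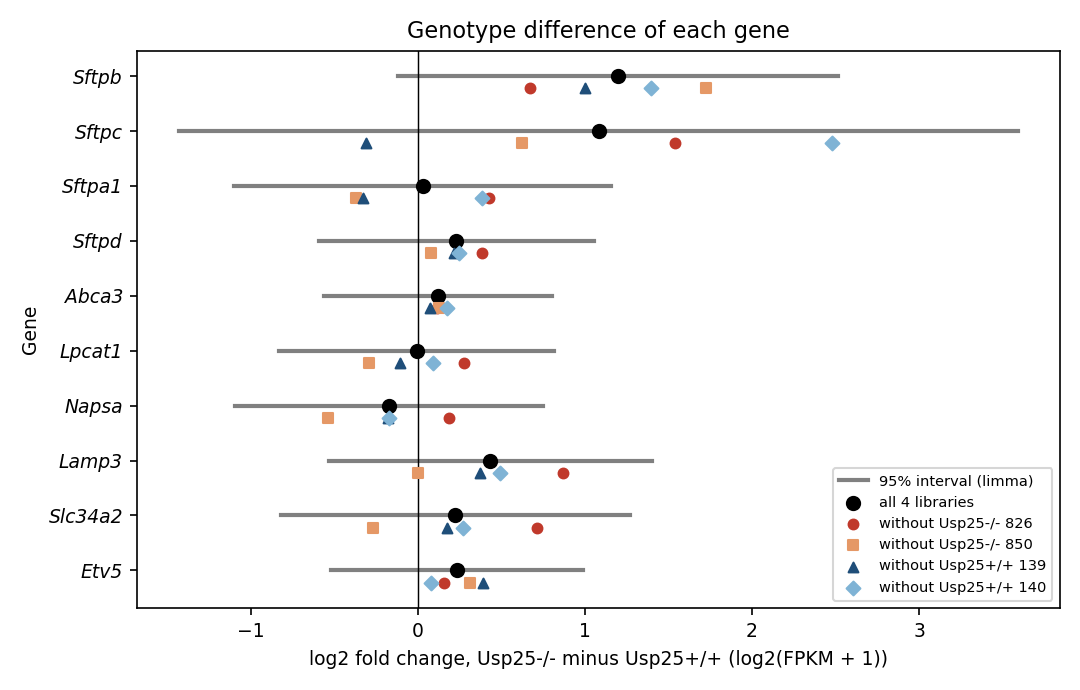
Black points give the limma log2 fold change of each gene, Usp25-/- minus Usp25+/+, with a grey 95% interval, and coloured symbols give the same value with 1 library left out. All 10 intervals include 0, and the symbols of Sftpc spread from -0.31 to 2.48.

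The members differed in their highest and lowest libraries. Usp25-/- 850 was the highest library for 7 members and Usp25-/- 826 for the other 3, Sftpb, Abca3 and Etv5. Among all tested genes 850 was the highest in 17.5% and 826 in 25.4%. The lowest library was 139 for 5 members, 826 for 4 and 140 for 1, whereas 850 was the lowest for none. Over all tested genes these shares were 39.3%, 24.5%, 23.2% and 13.0%. The mean log2(FPKM + 1) of the members was 5.97 and 6.36 in Usp25-/- 826 and 850, against 5.62 and 6.04 in Usp25+/+ 139 and 140, so that 826 lay below 140.

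Other gene groups differed between the same libraries. The 10 neutrophil genes summed to 2194 and 1278 FPKM in Usp25-/- 826 and 850, against 42485 and 770 FPKM in Usp25+/+ 139 and 140, and each was highest in 139, the library with the lowest Sftpc and Sftpb. The 4 general epithelial genes Epcam, Cdh1, Krt8 and Krt18 summed to 2364 and 936 FPKM in Usp25-/- libraries, against 561 and 540 FPKM in Usp25+/+ libraries, all 4 higher without overlap, as were 19.0% of all tested genes, and highest in 826. The 8 genes known from the gastric surface summed to 2896 and 1129 FPKM in Usp25-/- libraries, against 144 and 175 FPKM in Usp25+/+ libraries, also highest in 826, where Sftpb was highest. FPKM is relative to the whole library, and the part of these groups in the levels of the surfactant genes was not tested. When each library was scaled to the 4 epithelial genes, the median of all tested genes moved by -1.26 on the log2 scale to -1.23. The member median became -1.03 with all 10 negative. Relative to the median of all genes it was 0.19 before and after, which is fixed by construction because this scaling shifts every gene by the same amount. In that scaling 14 genes passed the test, none of them a member.

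Another set of type 2 cell genes, taken from general knowledge of the cell type, also had no gene past the test. Of 20 such genes 19 were in the files and 17 were tested, 13 with a positive and 4 with a negative log2 fold change. Their median was 0.46, or 0.02 without 139 and 0.81 without 140. The genotypes did not overlap in 5 higher genes and 1 lower gene of the 17, near the background of 33.8% of all tested genes. Il33, an alarmin that type 2 cells make in mice, had 268 and 112 FPKM in Usp25-/- 826 and 850, against 30.2 and 35.2 FPKM in Usp25+/+ 139 and 140. The lung chemokine Cxcl15 had 87.5 and 109 FPKM in Usp25-/- libraries, against 43.3 and 62.8 FPKM in Usp25+/+ libraries, without overlap (log2 fold change 0.89, SE 0.34; limma adjusted p = 0.960). Sfta2, a small secreted surfactant-associated protein, and Cldn18, a tight junction protein of lung and stomach, differed by 0.99 (SE 0.42) and 0.63 (SE 0.32) on the log2 scale. The lysozyme Lyz1 had 194 and 166 FPKM in Usp25-/- libraries, against 77.7 and 202 FPKM in Usp25+/+ libraries, low in 139 alone.

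Genes that make the lipid of surfactant were balanced between directions. Of 22 tested genes 11 were higher and 11 lower, with a median log2 fold change of -0.05 and none past the test. The genotypes did not overlap in 2 higher and 5 lower genes, while 33.8% of all tested genes did not overlap. Fabp5, a fatty acid binding protein, had 484 and 835 FPKM in Usp25-/- libraries, against 165 and 745 FPKM in Usp25+/+ libraries, low in 139 as Sftpc was. Pcyt1a, the rate-limiting enzyme of phosphatidylcholine synthesis, had 6.91 and 15.1 FPKM in Usp25-/- libraries, against 19.4 and 16.6 FPKM in Usp25+/+ libraries, without overlap (log2 fold change -0.75, SE 0.42; limma adjusted p = 0.960). Chpt1, which completes that synthesis, and the desaturase Scd1 differed by -0.52 (SE 0.31) and -0.51 (SE 0.33) on the log2 scale.

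Processing, sorting and clearance of surfactant showed the same absence of calls. Of 14 tested processing and organelle genes 8 were higher and 6 lower (median 0.05). Ctsh, a cathepsin that cleaves surfactant precursors and is also present in macrophages, had 557 and 461 FPKM in Usp25-/- libraries, against 289 and 471 FPKM in Usp25+/+ libraries. The list had 2 higher and 4 lower genes without overlap, while 33.8% of all tested genes did not overlap. Among the lower were Rab32, a small GTPase of lysosome-related organelles, with 58.4 and 65.3 FPKM in Usp25-/- libraries, against 121 and 69.8 FPKM in Usp25+/+ libraries (log2 fold change -0.57, SE 0.38), and Ap3d1, a subunit of a sorting adaptor, which differed by -0.50 (SE 0.29) on the log2 scale. Of 11 tested clearance genes 6 were higher and 5 lower (median 0.07, or -0.31 without 139 and 0.38 without 140). Among them Csf2, the growth factor that alveolar macrophages need to degrade surfactant, had 48.0 and 3.42 FPKM in Usp25-/- libraries, against 6.35 and 2.60 FPKM in Usp25+/+ libraries, high in 826 alone. Pparg, a lipid-sensing factor of alveolar macrophages, had 80.4 and 66.6 FPKM in Usp25-/- libraries, against 27.4 and 54.3 FPKM in Usp25+/+ libraries, the only higher gene of the 11 without overlap. The 2 lower genes without overlap were Spi1 and Csf2rb, again beside a share of 33.8% without overlap among all tested genes. Spi1, a transcription factor of myeloid cells, had 110 and 148 FPKM in Usp25-/- libraries, against 185 and 243 FPKM in Usp25+/+ libraries (log2 fold change -0.73, SE 0.35). Csf2rb, a receptor subunit for the product of Csf2, had 91.4 and 68.0 FPKM in Usp25-/- libraries, against 153 and 95.3 FPKM in Usp25+/+ libraries (log2 fold change -0.61, SE 0.38). The list of 13 alveolar macrophage genes summed to 2476 and 2357 FPKM in Usp25-/- libraries, against 1894 and 2810 FPKM in Usp25+/+ libraries, which overlapped.

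Of the 18 tested regulators of type 2 cells, 12 were higher and 6 lower in Usp25-/-, with a median of 0.37 and none past the test. The genotypes did not overlap in 8 higher genes and 1 lower gene, while 19.0% of all tested genes lay higher without overlap, a difference that was not tested. Library 826 was the highest for 10 of the 18 regulators, and for 25.4% of all tested genes. Gata6, a factor of lung epithelium, had 6.43 and 6.10 FPKM in Usp25-/- libraries, against 1.85 and 2.18 FPKM in Usp25+/+ libraries (log2 fold change 1.27, SE 0.28; limma adjusted p = 0.960). Cebpa, needed for type 2 cell maturation, had 53.4 and 4.31 FPKM in Usp25-/- libraries, against 31.6 and 63.6 FPKM in Usp25+/+ libraries, low in 850 alone.

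Paralogs of the members had levels of their own. The relatives Slc34a1 and Slc34a3, chosen after their values were seen, did not exceed 0.035 FPKM in any library. Lpcat3 had 50.0 and 37.8 FPKM in Usp25-/- libraries, against 30.9 and 52.3 FPKM in Usp25+/+ libraries, a higher level per length than Lpcat1 in each library. Lpcat2 had 13.8 and 9.99 FPKM in Usp25-/- libraries, against 89.8 and 9.67 FPKM in Usp25+/+ libraries, high in 139 alone. The lysosomal Lamp1 stood at 559 and 590 FPKM in Usp25-/- libraries, against 600 and 764 FPKM in Usp25+/+ libraries, far above Lamp3 in each. Ctse, an aspartic protease of the gastric surface and a relative of Napsa, had 126 and 33.9 FPKM in Usp25-/- libraries, against 21.5 and 15.2 FPKM in Usp25+/+ libraries.

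Genes of other lung cell types were set beside them. The 15 genes of flat alveolar type 1 cells had a mean log2(FPKM + 1) of 3.45 and 3.61 in Usp25-/- libraries, against 3.16 and 3.53 in Usp25+/+ libraries, lowest in 139. Ager, their receptor for glycation products, had 66.4 and 111 FPKM in Usp25-/- libraries, against 37.2 and 108 FPKM in Usp25+/+ libraries. Of 9 tested type 1 genes, 6 were higher and 3 lower in Usp25-/-, with a median log2 fold change of 0.43 and none past the test. The genotypes did not overlap in 4 higher and 0 lower genes, while 19.0% of all tested genes lay higher without overlap. Club cell genes went the other way in 139. Of 11 tested, 7 were highest there, 9 were lower in Usp25-/- and the median log2 fold change was -0.65. That median was -0.16 without 139, -1.07 without 140, -0.04 without 826 and -1.12 without 850. Scgb1a1, the main club cell secretion, had 219 and 567 FPKM in Usp25-/- libraries, against 741 and 462 FPKM in Usp25+/+ libraries. Sftpb is known to be made by club cells as well as type 2 cells in mice. Nkx2-1 is also expressed in the thyroid. Of 5 thyroid genes 3 were under 1 FPKM in all 4 libraries, Slc5a5 reached 2.20 FPKM in Usp25-/- 826 and Tg 1.31 FPKM in Usp25+/+ 139, and the list summed to at most 3.43 FPKM in any library.

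**Figure D5:**
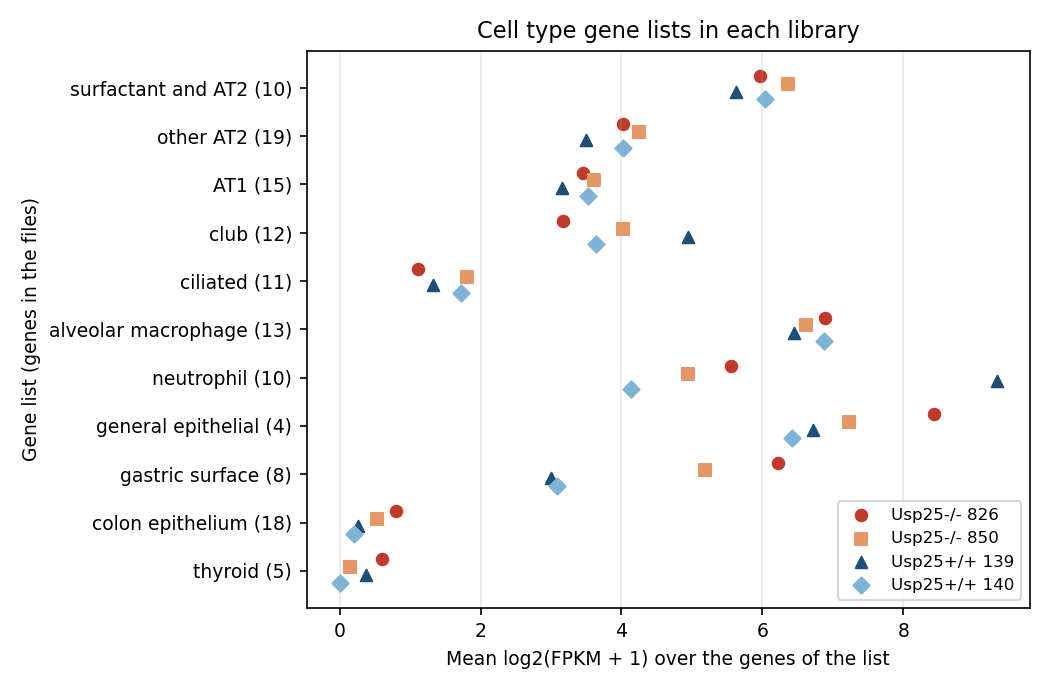
Each symbol is the mean log2(FPKM + 1) of a gene list (rows, with the number of genes in the files) in a library; AT1 and AT2 stand for alveolar type 1 and type 2. The 10 surfactant and type 2 genes lie between 5.62 and 6.36, and the colon epithelial genes below 1 in all 4 libraries.

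The genes nearest in pattern over the 4 libraries were found by the root mean square difference of centred log2(FPKM + 1) among 5330 other genes whose mean was 10 FPKM or more. For Sftpc they were Kcne3 (0.19), Lars2 (0.22), BC028528 (0.24) and Fabp5 (0.25), each lowest in 139 and highest in 850. Lars2 was listed at 13882 and 25473 FPKM in Usp25-/- libraries, against 2504 and 17000 FPKM in Usp25+/+ libraries. These levels lay far above those of Sftpc in each library, and which reads gave them was not tested. For Sftpb they were Fam213a (0.06), Fam162a (0.09), Pdlim1 (0.10) and Tpm1 (0.12), each highest in 826. For the mean of the 10 members they were Mrpl46 (0.02), Farsb (0.03), Csrp1 (0.03) and Tsnax (0.03). None of these 12 apart from Fabp5 stood on the lists used here, and a pattern over 4 libraries rests on few points.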

How the data were processed

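The deposited tables give 1 value per gene and library. Cutadapt, TopHat2 2.1.1, Cufflinks and the build mm9 appear, without roles, in the submitters' processing notes, and the sources used here give neither annotation nor filters. The values are taken as FPKM because Cufflinks is named and the authors' library sums differ (526652 to 565645); no header states the unit. Each library is scaled by its own mapped fragments and its depth is unknown, so no counting interval is given. Libraries were non-directional per the labels' protocols, so reads of genes overlapping Abca3, Napsa and Slc34a2 cannot be told apart by strand.

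Log2(FPKM + 1) was computed here, which understates differences of low genes. The 12011 genes averaging 1 FPKM or more entered a limma fit (version 3.58.1, R 4.3.3, trend, two-sided), with Benjamini-Hochberg adjustment over all tested genes and a threshold of 0.05. Fits were tested on simulated data. The labels name separate animals, 2 of each genotype. Standard errors, intervals and p-values rest on variances that limma moderated toward a trend over all tested genes. They are therefore not the spread of these animals alone, and for a steady gene such as Abca3 the interval is wider than its own values would give. For Sftpc, the most variable member, the interval is narrower than its own values would give. Alternatives were other pseudocounts, filters, scalings and variance models, and leaving out each library. The members and gene lists were chosen with earlier results of these data known, so lists are described by counts and medians without a test. Named genes were the members, Usp25, the tested genes with the largest change and the most abundant genes of each list, not all of them shown, and the nearest patterns. Nkx2-1, Foxa1, the colon and sex-linked genes and Lpcat3 were named outside that rule after their values were seen. Coordinates come from GENCODE vM1 on NCBIM37 (mm9), which matched 20836 of 24421 symbols and all 10 members.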

Additional observations from a re-analysis of the deposited data

How the results depend on the processing

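No paired analysis was made because the labels used here name no pairs or batches of animals. Sftpb divided by Sftpc grouped 826 with 139 and 850 with 140, and whether these libraries shared a batch was not tested. No member passed the limma test under any of the 13 alternatives. Scaling to general epithelial genes gave 14 called genes, a member median of -1.03 and 0 members higher, with log2 fold changes of -1.23 for Sftpa1, -0.062 for Sftpb, -0.18 for Sftpc, -1.03 for Sftpd, -1.14 for Abca3, -0.83 for Lamp3, -1.04 for Slc34a2 and -1.03 for Etv5. This is a constant shift of every gene by construction. Under it Usp25 passed (-4.33, adjusted p = 0.0176). Lpcat1 was 0.0040 with upper quartile scaling and 0.0010 with quantile normalization. In limma without the variance trend, 1 member had an unadjusted p under 0.05, against 0 in the main fit. Quantile normalization left 2 members without overlap, and the cause was not tested. With each library left out in turn, 0 genes were called, the member median ran from 0.04 to 0.41, 6 to 10 members were higher and 4 to 10 did not overlap, where a lone library overlaps less by construction. Those fits gave -0.37 to 0.43 for Sftpa1, -0.31 to 2.48 for Sftpc, -0.54 to 0.19 for Napsa, -0.27 to 0.71 for Slc34a2 and -0.29 to 0.28 for Lpcat1. Sftpb, Sftpd, Abca3, Lamp3 and Etv5 stayed positive in them. A mean of at least 5 FPKM leaves no value for Etv5. All 10 member intervals include 0, and with 2 libraries in each genotype and unknown depth that does not show equal levels.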
